A study of Homo sapiens with 2 samples.

Results

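Transcript levels of WNT5A, of its relative WNT5B and of 8 genes for their secretion and reception were compared in a radiotherapy-resistant breast cancer line and its parent. WNT5A was found in the resistant line alone, none of the 8 other measured genes differed by 1.5-fold, and ROR2 was too low to compare. The 10 genes are the ligand genes WNT5A and WNT5B, the secretion genes WLS and PORCN, the Frizzled receptor genes FZD2, FZD6 and FZD7, and the receptor kinase-type genes ROR1, ROR2 and RYK. They were taken by gene symbol from 24462 symbols, with earlier results of these libraries known, so their values describe the 2 libraries and no test is made on them. RT-R-MDA-MB-231 cells (RT-R) were derived from MDA-MB-231 by X-ray doses of 2 Gy each that summed to 50 Gy. The parental cells were MDA-MB-231, an established human triple negative breast cancer line, grown in the same serum-containing RPMI medium. Each line gave 1 library of total RNA made with a 3' tag kit, so no difference below has a replicate check, and a line-wide change cannot be told apart from a difference between these cultures. In bulk RNA, fewer expressing cells and less RNA per cell cannot be told apart either.

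Wnt proteins are lipid-modified in the endoplasmic reticulum and carried to the cell surface, where Frizzled receptors bind them together with a co-receptor. With LRP5 or LRP6 as co-receptor the signal stabilises beta-catenin, which is the canonical branch. WNT5A is the best known ligand of the noncanonical branches, which act through ROR1, ROR2 or RYK and Frizzleds on planar cell polarity, JNK and intracellular calcium. In breast cancer cells WNT5A has been studied for its effects on migration and invasion. The Frizzled genes serve the canonical branch as well, so their levels do not tell the branches apart.

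The library totals were 10014804 counts for RT-R and 9255008 counts for parental cells. Of all symbols, 12644 had at least 20 counts in a library and are called measured here. The median log2 ratio of RT-R to parental over these genes was -0.01, and the median absolute log2 ratio was 0.34. Both libraries contained the markers of the line (VIM, CD44, CAV1, AXL and MSN). Their summed level was 3286 CPM (counts scaled to a common library size) in RT-R and 3284 in parental cells. The single markers differed in both directions, each under 2-fold. VIM was 1.76-fold, AXL 1.24-fold and CD44 1.10-fold higher in RT-R, and MSN was 1.54-fold and CAV1 1.34-fold lower. ESR1, the estrogen receptor gene, had 1 count in RT-R and 0 in parental cells, and PGR had 0 in both. Of 5 markers that a triple negative line should lack or hold at a low level, ERBB2 had 174 counts in RT-R and 230 in parental cells, GATA3 113 in RT-R and 152 in parental cells, and FOXA1 7 in RT-R and 11 in parental cells, none of them called by the rule below. Because a 3' tag kit counts about 1 tag per transcript CPM were not divided by gene length. All intervals are 95% intervals for counting error within a library, and reads copied by PCR are not independent molecules.

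WNT5A and WNT5B are close relatives, as are FZD2 and FZD7, so the first question was whether tags of one could be counted for the other. The longest identical run of each pair is shown, because it bears on how far the WNT5A counts can be told from WNT5B counts. Each sequence comes from the longest coding transcript of the gene in GENCODE v29, lies inside the coding sequence, and carries the identical run in capitals with 20 flanking bases on each side.
WNT5A, chromosome 3: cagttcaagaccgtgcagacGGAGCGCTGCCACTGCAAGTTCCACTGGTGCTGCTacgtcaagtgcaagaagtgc
WNT5B, chromosome 12: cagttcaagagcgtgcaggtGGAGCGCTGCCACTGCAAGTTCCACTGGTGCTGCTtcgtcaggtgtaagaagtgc
FZD2, chromosome 17: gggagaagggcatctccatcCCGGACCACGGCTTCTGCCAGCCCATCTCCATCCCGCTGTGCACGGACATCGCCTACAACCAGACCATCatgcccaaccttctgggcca
FZD7, chromosome 2: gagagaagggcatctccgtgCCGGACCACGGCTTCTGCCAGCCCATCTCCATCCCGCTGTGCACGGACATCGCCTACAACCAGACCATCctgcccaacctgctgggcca
The WNT5 run was 35 bases long and ended 4429 bases before the end of the WNT5A transcript and 1044 bases before that of WNT5B. The Frizzled run was 69 bases long and ended 1714 bases before the end of FZD2 and 3600 bases before that of FZD7. A 3' tag kit reads near the transcript end, so the last 500 bases were compared with all GENCODE transcripts in windows of 31 bases. None of the 470 windows of WNT5A or of WNT5B occurred in another gene. The same held for ROR1, ROR2, RYK, FZD6, FZD7 and WLS, whereas 2 windows of PORCN and 18 of FZD2 did occur elsewhere, those of FZD2 in FZD1 and FZD7.

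WNT5A transcripts were found in the RT-R library and not in the parental one. WNT5A had 81 counts in RT-R and 0 counts in parental cells. Taking 3 counts as the most that a parental 0 allows, WNT5A was at least 24.2-fold higher in RT-R. The lower end of the exact interval, which also allows for error in the RT-R count, was 19.2-fold. At the RT-R level, the parental library would have held 72.6 counts at its depth. The level in RT-R was 7.97 CPM (6.33 to 9.90), and 45% of the symbols detected in that library had fewer counts. WNT5A thus stood near the middle of the symbols with any count in RT-R and was not one of the abundant transcripts. Many of those symbols fell short of 20 counts, so its rank among measured genes was lower.

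WNT5B, the second member of the WNT5 subfamily, was present in both lines and differed little. It had 299 counts in RT-R and 205 in parental cells, a ratio of 1.31 (1.09 to 1.57). Summed, the WNT5 genes had 380 counts in RT-R and 205 in parental cells, a ratio of 1.66 (1.40 to 1.98). WNT5A made up 21.3% of this sum in RT-R (exact binomial interval 17.3 to 25.8%), against 0 of 205 counts in parental cells, which allows a share of up to 1.46% by the limit of 3 counts and 1.78% by the exact interval. WNT5B therefore stayed the more abundant WNT5 gene in RT-R. Over all 19 Wnt ligand genes the sums were 905 counts in RT-R and 777 in parental cells, a ratio of 1.04 (0.948 to 1.15), so the interval of the summed ligand level included equal expression. WNT5A took 8.95% of the ligand counts in RT-R (7.17 to 11%) and WNT5B took 33.0% (29.98 to 36.2%). In parental cells WNT5A had 0 of 777 ligand counts, which allows up to 0.386% by 3 counts and 0.474% by the exact interval, and WNT5B took 26.4% (23.3 to 29.6%). The leading ligand gene in both libraries was WNT7B, with 43.0% of the ligand counts in RT-R (39.7 to 46.3%) and 59.3% in parental cells (55.8 to 62.8%).

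**Figure D1:**
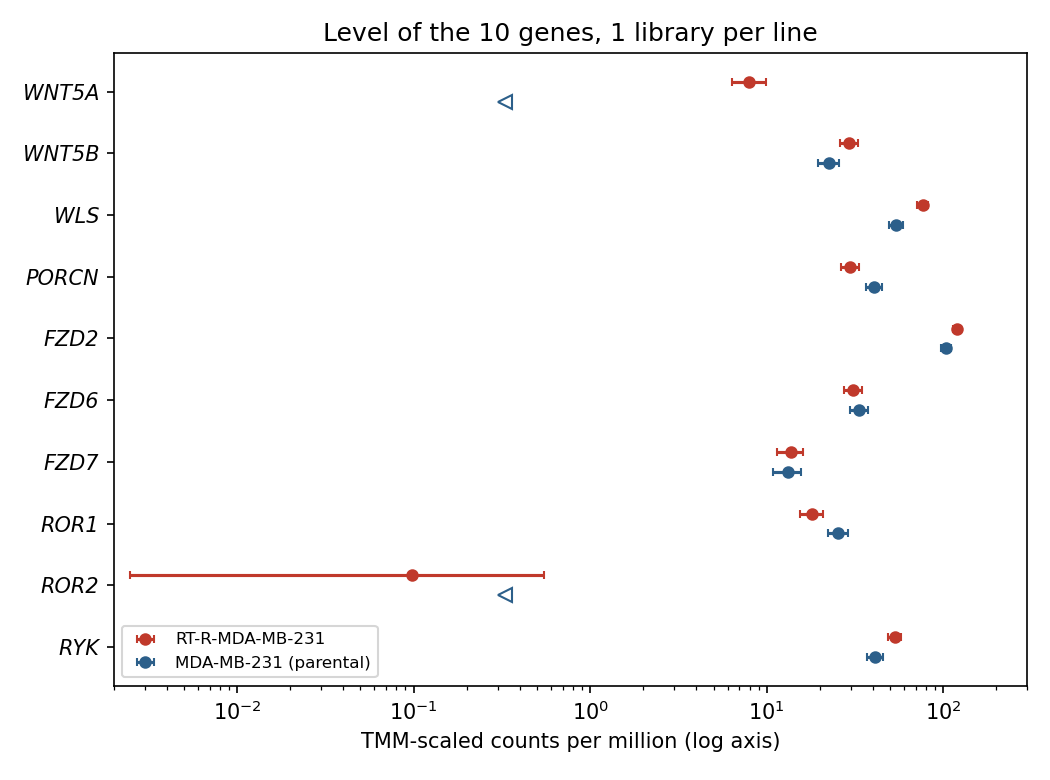
Level of each of the 10 genes in scaled CPM on a log axis, RT-R above parental, with exact 95% Poisson intervals and 1 library per line. Open triangles mark the level of 3 counts for genes with 0 parental counts. WNT5A stands at 7.97 in RT-R with no parental count, while the 8 other measured genes lie within 1.5-fold of their parental level.

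The secretion genes differed by less than 1.5-fold, with intervals on opposite sides of equal expression. WLS encodes the carrier protein (Wntless) that takes lipid-modified Wnts to the cell surface, and it had 779 counts in RT-R and 494 in parental cells, a ratio of 1.41 (1.26 to 1.59). PORCN encodes the acyltransferase that attaches the lipid, and it had 301 counts in RT-R and 369 in parental cells, 1.37-fold lower (1.17 to 1.60). Neither reached 2-fold. Their summed counts were 1080 in RT-R and 863 in parental cells, a ratio of 1.12 (1.03 to 1.23). PORCN took 27.9% of that sum in RT-R (25.2 to 30.6%) and 42.8% in parental cells (39.4 to 46.1%). This share uses counts of the same library only, so library scaling does not enter it.

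The 3 Frizzled receptor genes differed by little. FZD2 was the most abundant of the 10 genes in both libraries, with 1215 counts in RT-R and 944 in parental cells, a ratio of 1.15 (1.06 to 1.26). FZD6 had 314 counts in RT-R and 304 in parental cells, a ratio of 0.926 (0.788 to 1.09). FZD7 had 139 counts in RT-R and 120 in parental cells, a ratio of 1.04 (0.808 to 1.34). The intervals of FZD6 and FZD7 included equal expression and lay well inside 2-fold on both sides. Together the 3 genes took 78.6% of the counts of all 10 Frizzled genes in RT-R (76.8 to 80.4%) and 76.4% in parental cells (74.4 to 78.4%). FZD2 alone took 57.3% in RT-R (55.1 to 59.4%) and 52.7% in parental cells (50.4 to 55.1%), so the Frizzled repertoire had the same leading gene in both lines.

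Among the receptor kinase-type genes, ROR1 and RYK differed by less than 1.5-fold and ROR2 was near 0. ROR1 encodes a tyrosine kinase-like receptor that binds WNT5A, and it had 183 counts in RT-R and 232 in parental cells, 1.41-fold lower (1.16 to 1.73). Its antisense gene ROR1-AS1 overlaps it and had 9 counts in RT-R and 16 in parental cells, and since the use of strand in counting is not given, reads of this antisense gene cannot be told apart from those of ROR1. The same limit holds for WNT5A, which WNT5A-AS1 (not analysed here) overlaps, and for WLS, which GNG12-AS1 overlaps with 3 counts in RT-R and 1 in parental cells. RYK encodes a Wnt receptor with an inactive kinase domain, and it had 542 counts in RT-R and 375 in parental cells, a ratio of 1.30 (1.13 to 1.48). ROR2, the other ROR receptor, had 1 count in RT-R and 0 in parental cells, at or under the 3 counts that set the limit of detection here, so no ratio is given and a difference was not detectable at this depth. ROR1 made up 25.2% of the counts of ROR1, ROR2 and RYK in RT-R (22.1 to 28.5%) and 38.2% in parental cells (34.3 to 42.2%). The summed level of these 3 genes had a ratio of 1.07 (0.962 to 1.20).

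In order of level, RT-R had FZD2, WLS, RYK, FZD6, PORCN, WNT5B, ROR1, FZD7, WNT5A and ROR2, and parental cells had FZD2, WLS, RYK, PORCN, FZD6, ROR1, WNT5B and FZD7, followed by ROR2 and WNT5A at 0. In RT-R, the intervals of FZD6 (30.9 CPM), PORCN (29.6) and WNT5B (29.4) overlapped, as did those of ROR1 (18.0) and FZD7 (13.7). In parental cells, neighbours with overlapping intervals were RYK (41.1) and PORCN (40.5), PORCN and FZD6 (33.3), and ROR1 (25.4) and WNT5B (22.5). FZD2 stood clear of the next gene in each library, at 119.5 CPM in RT-R and 103.6 in parental cells. FZD2 had more counts than 90.4% of the detected symbols in RT-R and 87.6% in parental cells.

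To be called, a measured gene had to differ 2-fold or more, with equal expression outside its interval. By this rule, 6.95% of all measured genes were called higher in RT-R and 4.0% lower. Of the 10 genes, WNT5A was called higher, 8 were measured and not called, and ROR2 was not measured. WNT5A passed the count minimum through the RT-R library alone, and 0.237% of measured genes had 0 parental and at least 20 RT-R counts as it did. No other member reached 1.5-fold, which 13.8% of all measured genes passed upward and 11.9% downward. By the interval alone, whatever the fold, 27.7% of measured genes lay above equal expression and 30.4% below. WNT5A, WNT5B, WLS, FZD2 and RYK lay above it and ROR1 and PORCN below it, so intervals on 1 side of 1 were common in these libraries and say little about any single gene of the list.

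**Figure D2:**
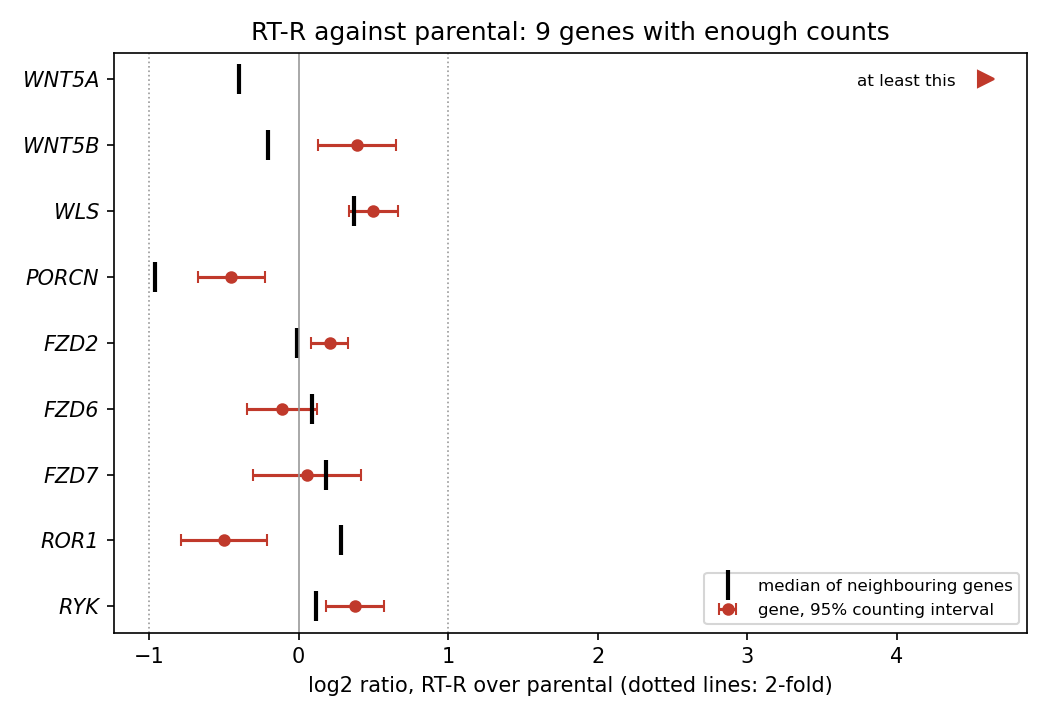
Log2 ratio of RT-R to parental for the 9 measured genes, with exact 95% counting intervals. The arrowhead is the lower bound for WNT5A, and the black ticks are the median log2 ratios of neighbouring genes on the chromosome. WNT5A is the only one of the 9 beyond the dotted 2-fold lines.

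Since 30 measured genes had 0 parental counts and at least 20 in RT-R, WNT5A was placed among them. It ranked 5 by RT-R count, with 25 genes below it, a median of 30.5 counts and a highest value of 382. The 5 genes most like WNT5A, by the smallest difference in RT-R count among genes with 0 parental counts over the 2 libraries, were GALNT9 with 66 RT-R counts, PLCH2 with 96, BDKRB2 with 61, PLCB4 with 104 and PPP1R14C with 56. GALNT9 encodes a glycosyltransferase of mucin-type O-glycosylation, PLCH2 and PLCB4 encode phospholipase C enzymes, BDKRB2 the bradykinin B2 receptor and PPP1R14C an inhibitor of protein phosphatase 1. Their distance from WNT5A was 15 to 25 counts. The reverse pattern, 0 counts in RT-R and at least 20 in parental cells, was found for 3 genes, 0.0237% of those measured.

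**Figure D3:**
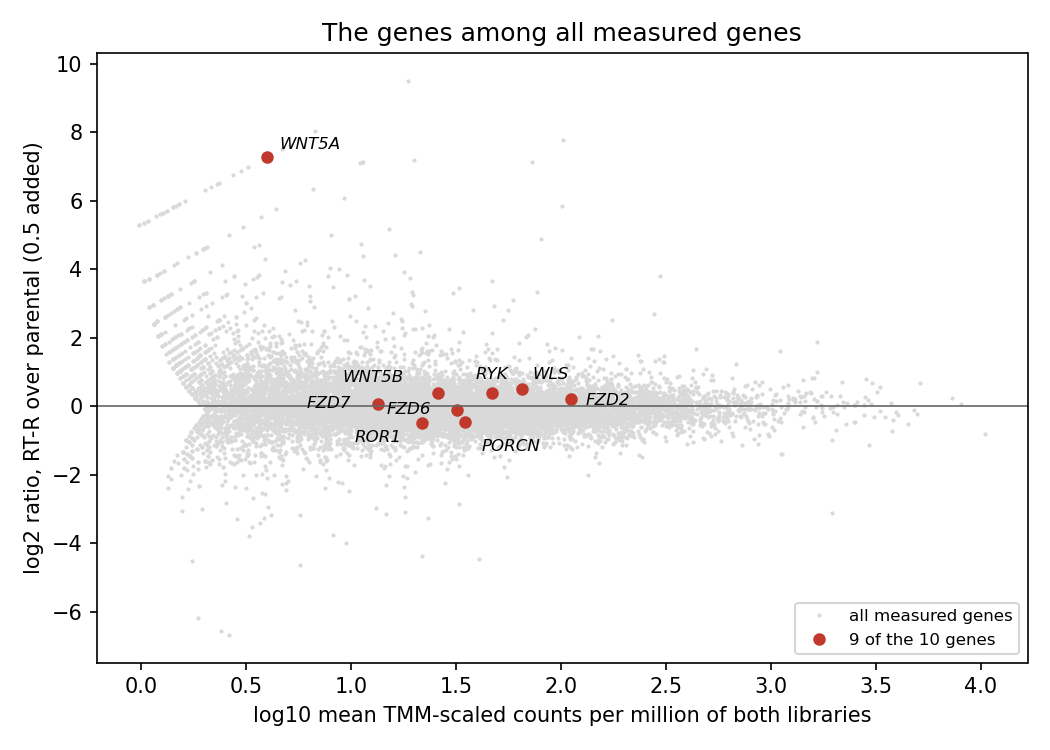
Log2 ratio of RT-R to parental against the log10 mean level for all 12644 measured genes (grey) and 9 of the 10 genes (red), with 0.5 added to the scaled counts. WNT5A lies on the upper edge formed by genes with 0 parental counts, where the plotted ratio depends on the added 0.5. The 8 other genes lie within the main band.

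Expression in RT-R also differed by chromosomal region, so each gene was set against the 15 measured genes on each side of it. WNT5A lies in a stretch of chromosome 3 where expression was lower in RT-R. The median log2 ratio of its 30 neighbours was -0.40, and 27 of them lay below 0. WNT5A was higher than all 30. The adjacent measured gene on one side, SELK, which encodes a selenoprotein of the endoplasmic reticulum, had 336 counts in RT-R and 397 in parental cells, 1.32-fold lower (1.14 to 1.53). The adjacent gene on the other side, ERC2, which encodes a presynaptic active zone protein, had 47 counts in RT-R and 4 in parental cells, a ratio of 10.5 (3.85 to 40.3). ERC2 was the highest of the 30 neighbours and the only one called higher, and GENCODE places it on the same strand as WNT5A. Between SELK and WNT5A, CACNA2D3 had 3 counts in RT-R and 0 in parental cells, and LRTM1, ESRG and CACNA2D3-AS1 had 0 in both.

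PORCN lies on the X chromosome, where RT-R expression was lower as a whole. The median log2 ratio over 424 measured X-linked genes was -0.78, and that of the 30 neighbours of PORCN was -0.96. Of these neighbours 29 lay below 0 and 12 were called lower. PORCN, with a log2 ratio of -0.45, was higher than 28 of the 30. Relative to its neighbours it had a log2 ratio of 0.51, the opposite sign to its ratio over the whole library.

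ROR1 and WLS lie near each other on chromosome 1 and share part of their neighbours, which were higher in RT-R. The median log2 ratio of neighbours was 0.28 for ROR1 and 0.37 for WLS, with 23 of 30 above 0 for each. The log2 ratio of WLS was 0.50, above 17 of its neighbours and below 13, and 0.13 after their median was subtracted. ROR1, at -0.50, was lower than all 30 of its neighbours, and its log2 ratio relative to them was -0.78. For WNT5B, near the end of chromosome 12 with 21 neighbours, the median was -0.20 and the relative log2 ratio 0.59. For RYK, FZD2, FZD6 and FZD7 the neighbour medians lay between -0.01 (FZD2) and 0.18 (FZD7), and the relative log2 ratios were 0.25 for RYK, 0.22 for FZD2, -0.20 for FZD6 and -0.13 for FZD7. The part of the chromosomal region in these ratios was not tested.

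**Figure D4:**
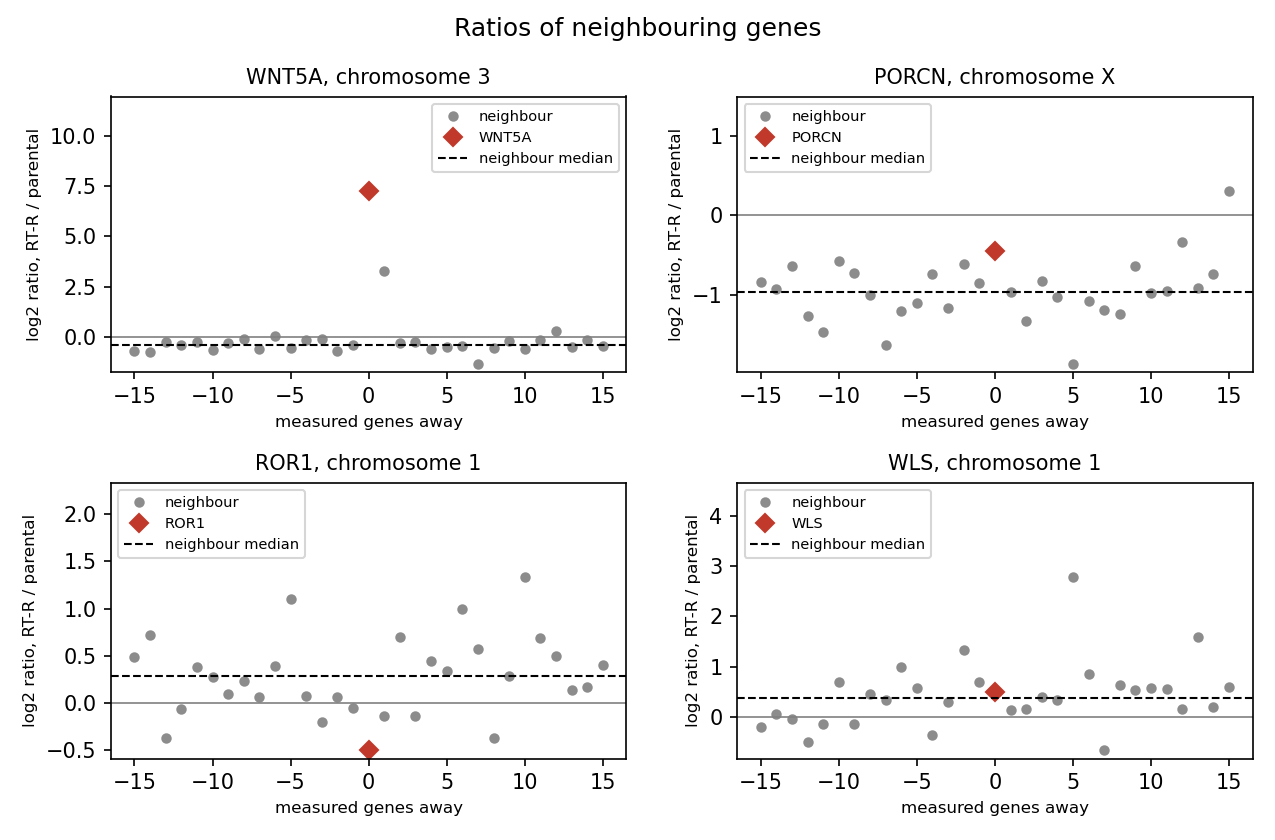
Log2 ratio of RT-R to parental for WNT5A, PORCN, ROR1 and WLS (red) and for the 15 measured genes on each side in chromosomal order (grey), with 0.5 added to the scaled counts. WNT5A rises above all 30 neighbours in a region with a median of -0.40, and ROR1 lies below all 30 of its own. PORCN lies above 28 of 30.

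The receptors and effectors around the 10 genes were then read from lists chosen by their role in Wnt signalling, with results of these data known. Over 9 lists with 147 genes, 95 were measured, of which 10 were called higher and 6 lower, where the shares over all measured genes were 6.95% and 4.0%. Their median log2 ratio was 0.05, against -0.01 for all measured genes. Some of the called genes passed the count minimum only through the library in which they were higher.

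Among other receptors, PTK7 and MCAM were higher in RT-R. PTK7, a pseudokinase receptor of planar cell polarity, had 775 counts in RT-R and 159 in parental cells, 4.37-fold higher (3.68 to 5.22). MCAM, an adhesion molecule (CD146) reported to bind WNT5A, had 1356 counts in RT-R and 344 in parental cells, 3.53-fold higher (3.14 to 3.99). Of 12 other receptors and co-receptors, 8 were measured, these 2 were called higher and 0 lower (6.95% and 4.0% of all measured genes), with a median log2 ratio of -0.08. The canonical co-receptors of the study's title pathway, LRP6 and its relative LRP5, were lower in RT-R by less than 2-fold. LRP6 had 269 counts in RT-R and 296 in parental cells, 1.23-fold lower (1.04 to 1.45). LRP5 had 665 counts in RT-R and 831 in parental cells, 1.39-fold lower (1.26 to 1.55). Among 17 other Wnt ligand genes, 4 were measured and WNT10A was called higher, with 30 counts in RT-R and 13 in parental cells, 2.07-fold (1.05 to 4.32). After subtraction of its neighbours' median of 0.48, its log2 ratio was 0.54, under 2-fold. The median log2 ratio of those 4 was 0.13. WNT7B had 389 counts in RT-R and 461 in parental cells.

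Planar cell polarity genes included CELSR1, called higher, and PRICKLE2 and FAT4, called lower. Of 23 listed genes 20 were measured, 1 was called higher and 4 lower (6.95% and 4.0% of all measured genes), and the median log2 ratio was -0.12. CELSR1, an atypical cadherin of the polarity core, had 185 counts in RT-R and 54 in parental cells, 3.07-fold higher (2.26 to 4.24). PRICKLE2, a cytoplasmic core protein, had 124 counts in RT-R and 249 in parental cells, 2.24-fold lower (1.80 to 2.80). FAT4, an atypical cadherin, had 55 counts in RT-R and 120 in parental cells, 2.43-fold lower (1.75 to 3.41). PRICKLE3 was also called lower, with 6334 counts in RT-R and 14849 in parental cells, but it overlaps PLP2, which had nearly the same counts, 6309 in RT-R and 14801 in parental cells, so reads of these genes cannot be told apart and this call is uncertain. PRICKLE3 lies on the X chromosome and PRICKLE2 in a part of chromosome 3 with a neighbour median of -0.64. After subtraction of neighbours the log2 ratios were -0.60 for PRICKLE3, -0.52 for PRICKLE2 and -0.997 for FAT4, each under 2-fold, and 1.55 for CELSR1. VANGL2, a core membrane protein, was close to the limit, with 3 counts in RT-R and 1 in parental cells, whereas VANGL1 had 300 in RT-R and 303 in parental cells.

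The calcium branch held the largest single differences. Of 27 listed genes 22 were measured, 5 were called higher and 0 lower (6.95% and 4.0% of all measured genes), with a median log2 ratio of 0.21 that did not move when genes with 0 parental counts were set at their bound. PLCB4, a phospholipase C, had 104 counts in RT-R and 0 in parental cells, at least 31.1-fold higher with 3 counts in place of 0, and the exact interval began at 24.8-fold. The calcineurin-dependent transcription factor genes NFATC4 and NFATC1 were called higher too. NFATC4 had 302 counts in RT-R and 7 in parental cells, a ratio of 38.7 (18.5 to 97.0). NFATC1 had 21 counts in RT-R and 0 in parental cells, at least 6.28-fold higher by the same limit, and the exact interval began at 4.67-fold. Most of the 5 called genes, PLCB4, NFATC4 and NFATC1 among them, passed the count minimum through the RT-R library alone. The count of 5 therefore describes these libraries and is no result about the branch. The other NFAT genes of the list, NFATC2 (655 RT-R and 524 parental counts) and NFATC3 (680 RT-R and 458 parental counts), were the more abundant ones in parental cells and were not called.

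Of 10 reported partners and effectors of WNT5A, ROR1 and ROR2, 6 were measured. Among these, 1 was called higher and 0 lower (6.95% and 4.0% of all measured genes). The called gene was HCLS1, an actin-binding adaptor reported downstream of ROR1 in leukemia cells. It had 168 counts in RT-R and 71 in parental cells, 2.12-fold higher (1.60 to 2.84). Relative to its neighbours its log2 ratio was 0.89, under 2-fold. The median log2 ratio of those 6 was 0.25.

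**Figure D5:**
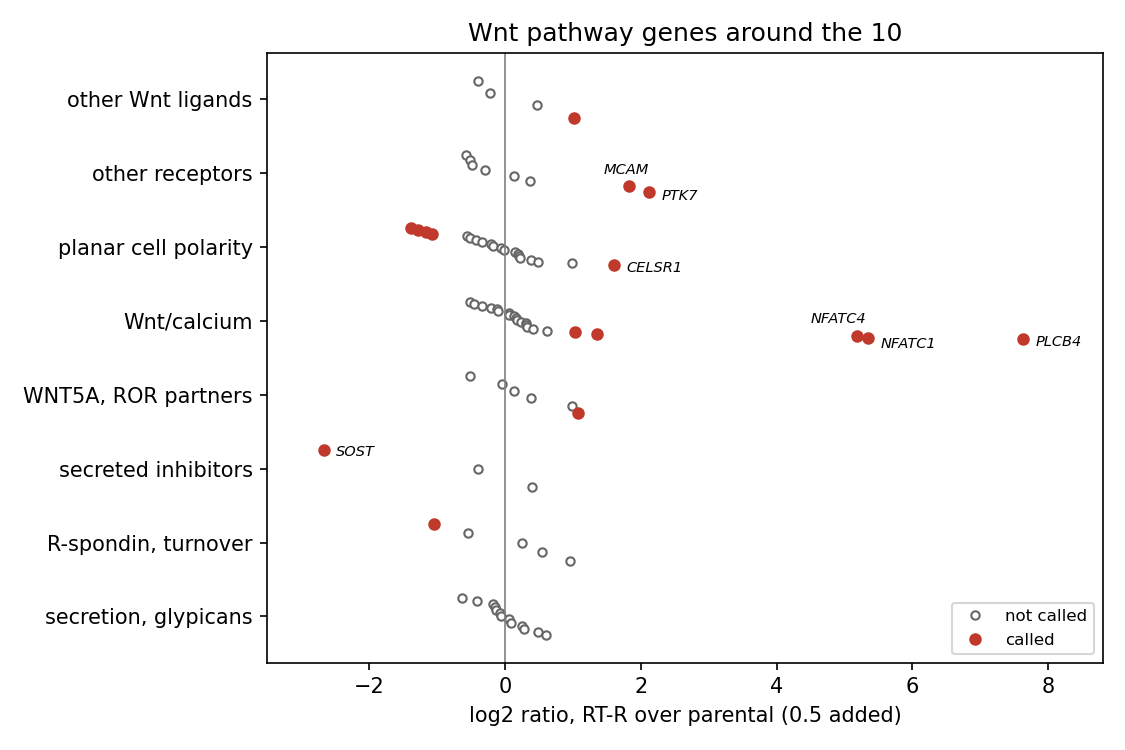
Log2 ratio of RT-R to parental for the 81 measured genes of 8 Wnt pathway lists, with 0.5 added to the scaled counts, filled where called. The ratios of PLCB4 and NFATC1, which had 0 parental counts, depend on the added 0.5. The calcium branch holds the 3 highest points.

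Fibroblasts can express WNT5A, so markers of other cell types were read beside it. Of 10 fibroblast markers, COL3A1, DCN and PDGFRA had 0 counts in both libraries, COL1A2 and LUM each had 2 in RT-R and 0 in parental cells, and FAP had 1 in RT-R and 0 in parental cells. The summed level of the list was 21.4 CPM in RT-R and 15.6 in parental cells. THY1 was called higher, with 47 counts in RT-R and 2 in parental cells, and PDGFRB lower, with 28 in RT-R and 52 in parental cells. The most abundant markers of the list were COL1A1, with 76 counts in RT-R and 59 in parental cells, and ACTA2, with 62 in RT-R and 29 in parental cells, a ratio of 1.92 (1.21 to 3.09) and under 2-fold. The 8 blood and endothelial markers summed to 9.15 CPM in RT-R and 26.7 in parental cells, with PTPRC and CD3E at 0 in both. Among them CD14 was called higher, with 39 counts in RT-R and 14 in parental cells, and PECAM1 lower, with 50 in RT-R and 223 in parental cells. The part of these markers in the WNT5A result was not tested.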

How the data were processed

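RNA of 1 library per line was sequenced with a QuantSeq 3' tag kit, per the labels' protocols. The authors deposited raw read counts per gene symbol. The submitters' processing notes name bcl2fastq 2.20.0.422, Bowtie2, bedtools and hg19, and the sources used here do not give the annotation, use of strand or treatment of multiply mapped reads. Rows with a repeated symbol were summed, which concerned none of the 10 genes. Libraries were scaled with TMM in edgeR 4.0.16 (R 4.3.3), which put the RT-R library at 1.12 times the parental size. DESeq2 1.42.0 served for alternative size factors only. Ratios carry exact conditional 95% intervals (scipy 1.17.1, Python 3.11.15) that cover counting error. Log2 ratios have 0.5 added to scaled counts. Calls needed 20 counts in a library, 2-fold and an interval that left out 1. Bounds took 3 counts in place of 0. With 1 library per line there are no p-values. Gene order came from RefSeq (GRCh38.p14, 98.6% of measured genes placed), and neighbours needed 50 counts over both libraries. Transcript sequences came from GENCODE v29. Scripts were tested on counts simulated with counting error alone, without differences between cultures. There the 2-fold rule called 29 of 50 genes changed 2-fold and 49 of 50 changed 3-fold. Being uncalled therefore says little about a gene near 2-fold. The genes named are the 10, up to 3 called higher and 3 lower per surrounding list, the 5 genes most like WNT5A, its adjacent genes, LRP5 and LRP6. CACNA2D3, LRTM1, ESRG, CACNA2D3-AS1, ROR1-AS1, WNT5A-AS1, GNG12-AS1, PLP2, WNT7B, VANGL1, VANGL2, NFATC2, NFATC3 and, in the closing section, RSPO1, LGR4, LGR6, ZNRF3 and DKK1 were named after their values were seen. Of the 9 surrounding lists, 1 enters the summed counts and is not reported here by itself. The members and lists were chosen with earlier results of these data known. Alternatives covered scaling, count minimum, fold, interval, repeated symbols, added count and neighbours.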

Additional observations from a re-analysis of the deposited data

How the results depend on the processing

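The call of WNT5A and the absence of any other called member held under scaling by total counts, by median of ratios and by upper quartile, at 1.5-fold and 4-fold, by fold alone, at a minimum of 1 count, with the largest row of a repeated symbol and after subtraction of neighbours. With a parental count of 0, the WNT5A call could not be undone by any of these settings, so they do not check it. They bear on the other members only. With a minimum of 100 counts the members called higher came to 0, since WNT5A had 81. Adding 5 in place of 0.5 gave WNT5A a log2 ratio of 4.03, against 7.27, because its parental count was 0. The members whose intervals lay above (5) and below (2) equal expression were the same genes under all 4 scalings, which shifted the median of all measured genes by at most 0.04. PORCN changed sign, to 0.51, only after subtraction of neighbours, and FZD7 to -0.13. Calls over all measured genes, 879 higher and 506 lower, came to 359 and 267 with a minimum of 100 counts, to 1742 and 1508 at 1.5-fold, and to 302 and 70 at 4-fold. At 4-fold, calls among surrounding pathway genes came to 4 higher and 1 lower, against 10 and 6. Higher genes were 63.5% of calls by the 2-fold rule, 53.6% at 1.5-fold and 81.2% at 4-fold. No paired analysis was possible because each line has 1 library, and for the same reason no library could be left out. Depth limits ROR2 and the WNT5A bound.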

Other observations

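Wnt modulators outside the cell and at the receptor were mostly near the limit of detection. Of 17 Wnt inhibitor genes, 8 had no count in either library and 3 were measured. Of these 3, 0 were called higher and 1 lower (6.95% and 4.0% of all measured genes). The gene called lower was SOST, which encodes sclerostin, an inhibitor that binds LRP5 and LRP6. SOST had 9 counts in RT-R and 54 in parental cells, 6.69-fold lower (3.28 to 15.4). DKK1, another LRP6 antagonist and the most abundant of the list, had 761 counts in RT-R and 520 in parental cells, a ratio of 1.31 (1.17 to 1.47) and not called.

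Of 11 genes of R-spondin signalling and receptor turnover, 5 were measured, with 0 called higher and 1 lower (6.95% and 4.0% of all measured genes). RNF43, a ubiquitin ligase that removes Frizzleds from the cell surface, had 16 counts in RT-R and 30 in parental cells, 2.09-fold lower (1.10 to 4.11), and overlaps BZRAP1-AS1 with 24 counts in RT-R and 26 in parental cells. Its relative ZNRF3 had 106 counts in RT-R and 80 in parental cells. RSPO1, a secreted agonist of this system, had 169 counts in RT-R and 78 in parental cells, a ratio of 1.94 (1.48 to 2.57), just under 2-fold. Among the R-spondin receptor genes, LGR4 had 187 counts in RT-R and 246 in parental cells, and LGR6 had 15 in RT-R and 1 in parental cells, under the minimum of 20.

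Genes of Wnt trafficking other than WLS and PORCN showed no calls by the 2-fold rule. Of 15 genes of secretion traffic, among them retromer, p24 and glypican genes, 13 were measured. Called higher were 0 and lower 0 (6.95% and 4.0% of all measured genes), and the median log2 ratio was -0.06. At 1.5-fold, 1 was higher and 1 lower (13.8% and 11.9% of all measured genes).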
